A study of Rattus norvegicus with 2 samples.

Results

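Transcript levels of 10 genes of bone morphogenetic protein (BMP) signalling were described in rat embryonic stem cells: the ligand gene Bmp4, the receptor genes Bmpr1a and Bmpr2, the Smad genes Smad1, Smad4, Smad5 and Smad7, and the target genes Id1, Id2 and Id3. They were taken by gene symbol from a deposited table of 23282 genes, in which each of the 10 had 1 row. The rule used no measured value, but the genes were chosen with earlier results of these data known. The cells were the untreated wild-type line DA-EC8/Rrrc of the Dark Agouti rat strain, at passage 30, with a karyotype labelled normal. They were grown in 2i medium, which contains inhibitors of the kinases MEK and GSK3, and the labels do not say whether BMP or serum was added. RNA sequencing libraries were made from total RNA in 2 replicates of this 1 group, so the study holds no contrast between conditions. Both replicates come from 1 cell line, and nothing in the labels says whether they came from separate cultures.

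BMP ligands bind a complex of type I and type II receptor kinases. The type I receptor phosphorylates Smad1, Smad5 and Smad9, which join the common partner Smad4, enter the nucleus and act on target genes. Id genes are direct targets in many cell types. The Id proteins they encode bind E proteins, a class of helix-loop-helix transcription factors, and keep them from DNA. In mouse embryonic stem cells cultured with LIF, BMP4 is known to support self-renewal through Id genes, while 2i medium maintains mouse and rat embryonic stem cells without added BMP.

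Values are RPKM, the reads of a gene divided by the length of its model in kilobases and by the library total in units of 1000000 reads. This is a level per length, by which genes are set side by side here. Such comparisons depend on the gene models and on how reads that map to several places were counted. Neither is given in the sources used here. Value steps in the table point to totals of 2991184 reads in replicate 1 and 3050685 reads in replicate 2. The libraries were sequenced from both ends, and whether a counted read is a single end or a pair, and whether all reads entered the totals, is not given in the sources used here. The read numbers and counting intervals below take each as 1 independent count, and the intervals are too narrow if both ends of a pair were counted. A gene model of 2 kb with 3 reads would read 0.501 RPKM in the first of these libraries and 0.492 RPKM in the second. Of the genes in the table, 8902 were listed at 0 in both replicates. Rps6, a ribosomal protein gene that every cell uses, is one of them, so a gene listed at 0 may still have been expressed. The label of the cells was checked against marker genes. All 7 embryonic stem cell markers (Pou5f1, Sox2, Nanog, Esrrb, Tbx3, Klf2 and Klf5) had a mean above 10 RPKM, and their levels summed to 1102 and 1096 RPKM in replicates 1 and 2. Among the 8 markers of fibroblasts and feeder cells, 4 reached 1 RPKM on average (Col1a1, Col3a1, Thy1 and Vim), with summed levels of 6.95 and 12.9 RPKM in replicates 1 and 2, and Col1a2, Acta2 and S100a4 were listed at 0. Of 8 mesoderm and trophectoderm markers 2 reached 1 RPKM (Tbx6 and Cdx2), with summed levels of 5.11 and 3.20 RPKM, and Mixl1, Mesp1 and Hand1 were listed at 0.

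The receptors and Smads lay at moderate levels, while the ligand and the Id genes were spread from the lowest to the highest of the 10. The mean of Id3 was 14.1 times that of Id1. Every one of the 10 genes averaged 1 RPKM or more, and 7 averaged 10 RPKM or more. Over all genes in the table the shares at these minimums were 46.4% and 29.4%. Replicate 1 gave a median of 24.3 RPKM over the 10 genes and replicate 2 one of 26.0 RPKM, beside 16.8 and 16.6 RPKM for the 10814 genes that averaged 1 RPKM or more. The bulk values cannot tell fewer cells expressing a gene apart from less RNA per cell.

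In order of mean level the genes ran Id3, Smad4, Bmpr1a, Smad1, Smad5, Smad7, Bmpr2, Id2, Bmp4 and Id1. Of the 9 pairs of neighbours in this order, 7 lay apart in the sense that both libraries of the higher gene exceeded both libraries of the lower one. The exceptions were Bmpr1a with Smad1 and Smad1 with Smad5, whose values overlapped. Few reads lie behind the lowest genes, so each level was also given a 95% Poisson interval from the reads of both libraries, which covers counting error only and is too wide where the true gene model is a multiple of the length found. By that measure 4 pairs lay apart: Id3 above Smad4, Smad4 above Bmpr1a, Smad7 above Bmpr2 and Bmpr2 above Id2. The intervals of Smad5 and Smad7, of Id2 and Bmp4, and of Bmp4 and Id1 overlapped as well, although their libraries lay apart. Overlap of intervals does not show that levels are equal, and the order within these pairs was not tested.

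**Figure D1:**
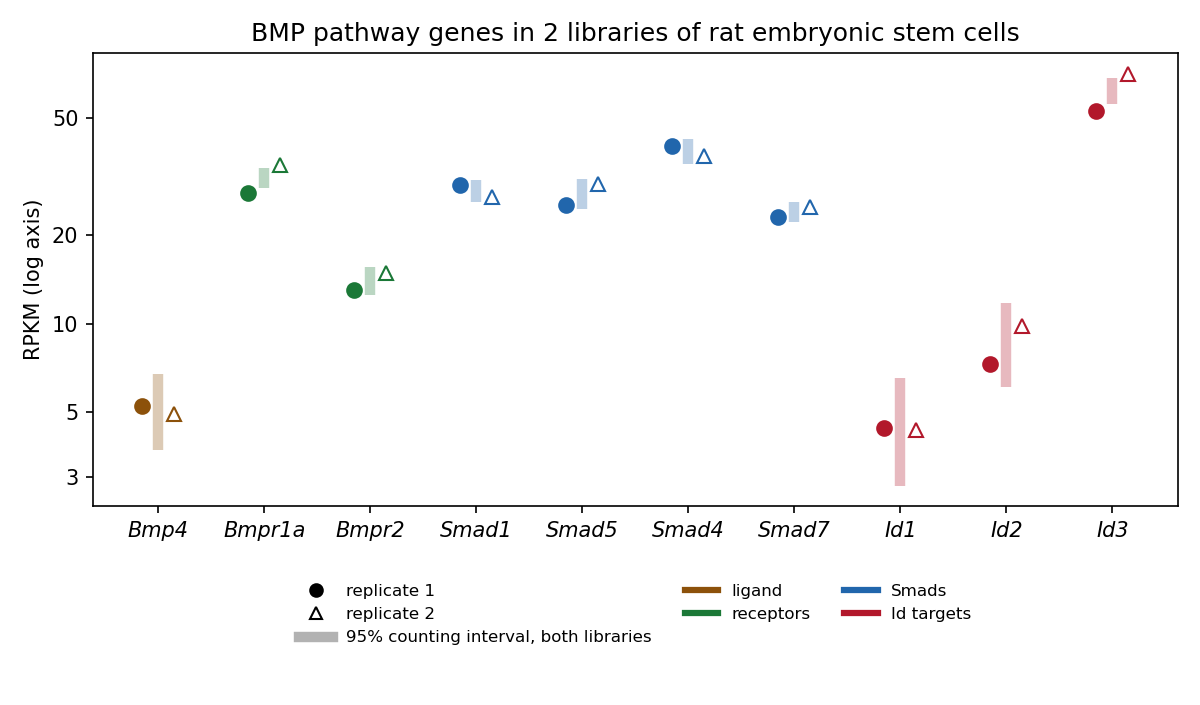
RPKM on a log axis for each of the 10 genes, with replicate 1 as filled circles, replicate 2 as open triangles and a bar for the 95% counting interval of both libraries together. Id3 stands highest at 52.9 and 71.0 RPKM, the Smads and Bmpr1a lie between 23.1 and 40.1 RPKM, and Bmp4 and Id1 lie near 5 RPKM with overlapping intervals.

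Bmp4 was a low but detected ligand gene, and it held most of the summed level of the ligand genes examined. Bmp4 (Entrez gene 25296, rn5 chromosome 15, 24735139 to 24738725, minus strand) had 5.23 RPKM in replicate 1 and 4.91 RPKM in replicate 2, averaging 5.07 ± 0.223 RPKM (SD, n = 2). These values correspond to 24 and 23 reads at a model length of 1535 bases, which gives a 95% interval of 3.72 to 6.74 RPKM. The mean exceeded that of 22.4% of the genes at 1 RPKM or more. None of the 12 other BMP and GDF ligand genes examined reached a mean of 1 RPKM, beside 46.4% of all genes in the table that did. Bmp7 was at 1.38 and 0.540 RPKM in replicates 1 and 2, and Bmp6 at 0.440 and 0.862 RPKM. The remaining 10, among them Bmp2, Bmp5 and Gdf6, were listed at 0 in both libraries. Bmp4 thus made up 74.2% of the summed ligand level in replicate 1 and 77.8% in replicate 2, where differences among the low genes rest on very few reads.

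Among the receptors, the type I gene Bmpr1a stood above the type II gene Bmpr2, and far above its own closest paralogue. Bmpr1a encodes ALK3, a type I receptor kinase for BMP2 and BMP4. It (Entrez gene 81507, chromosome 16, 9084569 to 9127943, minus strand) had 27.8 RPKM in replicate 1 and 34.7 RPKM in replicate 2, averaging 31.3 ± 4.85 RPKM (SD, n = 2). Bmpr2, the type II receptor kinase that activates the type I receptor (Entrez gene 140590, chromosome 9, 66371991 to 66479596, plus strand), was at 13.0 and 14.8 RPKM, a mean of 13.9 ± 1.26 RPKM. The ratio of Bmpr1a to Bmpr2 was 2.13 in replicate 1 and 2.34 in replicate 2, and the counting intervals of 28.8 to 33.9 RPKM and 12.5 to 15.5 RPKM did not overlap. Both libraries of Bmpr1a lay outside its interval, which covers counting error only.

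Bmpr1a took 83.5% and 87.4% of the summed level of the 4 type I receptor genes in replicates 1 and 2. Acvr1, which encodes ALK2, another type I receptor of BMP ligands, was at 5.07 and 4.42 RPKM, and Bmpr1a exceeded it 5.49-fold in replicate 1 and 7.85-fold in replicate 2. Acvrl1, the endothelial type I receptor gene, was at 0.191 and 0.561 RPKM. Bmpr1b had 0.223 RPKM in replicate 1 and was at 0 in replicate 2. The type II genes were more even. Bmpr2 made up 28.4% and 32.1% of their sum, beside Acvr2a at 14.4 and 14.1 RPKM and Acvr2b at 18.5 and 17.2 RPKM, both of which encode receptors shared by activin and BMP ligands. Bmpr2 was the lowest of these 3 in replicate 1, and in replicate 2 it lay between Acvr2a and Acvr2b. A pseudogene of Bmpr1a is listed in RefSeq for the rat, and how reads shared with it were counted is not given in the sources used here.

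The 4 Smad genes lay within a narrow band. Smad4, the common partner of both the BMP and the Nodal branch (Entrez gene 50554, chromosome 18, 68773326 to 68802354, minus strand), was the highest, with 40.1 RPKM in replicate 1 and 37.2 RPKM in replicate 2, averaging 38.7 ± 2.03 RPKM (SD, n = 2). Smad1, a receptor-regulated Smad of the BMP branch (Entrez gene 25671, chromosome 19, 43085029 to 43145287, plus strand), was at 29.6 and 26.9 RPKM, a mean of 28.3 ± 1.89 RPKM. Its close relative Smad5 (Entrez gene 59328, chromosome 17, 10489082 to 10499276, minus strand) was at 25.4 and 29.8 RPKM, a mean of 27.6 ± 3.09 RPKM. Smad1 was thus the higher of the pair in replicate 1 and Smad5 in replicate 2, and the 2 genes did not differ beyond their spread.

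Smad1 made up 53.8% and Smad5 46.2% of the BMP-branch Smad level in replicate 1, and 47.5% and 52.5% in replicate 2, because Smad9, the remaining receptor-regulated Smad of this branch, was listed at 0 in both libraries. Smad4 exceeded Smad1 by a ratio of 1.36 in replicate 1 and 1.38 in replicate 2. Smad2, which carries the Nodal and activin signal, was at 25.7 and 27.3 RPKM. The ratio of Smad1 to Smad2 was 1.15 in replicate 1 and 0.988 in replicate 2, so these RNA levels of the BMP and Nodal branches overlapped. Smad3, the other Smad of the Nodal and TGF-beta branch, was far lower at 1.37 and 1.76 RPKM.

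Of the inhibitory Smads, Smad7 was at a moderate level and Smad6 was near the detection minimum of 1 RPKM. Smad7 blocks the receptors of both branches and is induced by them as negative feedback. It (Entrez gene 81516, chromosome 18, 70530559 to 70558927, plus strand) had 23.1 RPKM in replicate 1 and 25.0 RPKM in replicate 2, averaging 24.1 ± 1.35 RPKM (SD, n = 2), close to the level of Smad1 and Smad5. Smad6, which acts mainly on the BMP branch, was at 0.972 and 1.19 RPKM. The ratio of Smad7 to Smad6 was 23.8 in replicate 1 and 21.0 in replicate 2, and Smad7 made up 96.0% and 95.5% of their sum.

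On chromosome 18 of the rn5 build, Smad4, Smad7 and Smad2 lie in this order. The gap between Smad4 and Smad7 is 1.73 Mb and holds 17 other genes of the table, 12 of them averaging 1 RPKM or more. The gap between Smad7 and Smad2 is 1.11 Mb and holds 3, of which 1 reached that level. The genes of low level in the Nodal branch and among the inhibitory Smads, Smad3 and Smad6, lie 0.211 Mb apart on chromosome 8 with no other gene of the table between them.

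Among the 10 genes, Id1, Id2 and Id3 differed more from each other than the 2 receptor genes or the 4 Smad genes did. This does not hold for the wider families, where Smad7 exceeded Smad6 by 23.8-fold and 21.0-fold in replicates 1 and 2. Id3 (Entrez gene 25585, chromosome 5, 158263323 to 158264892, plus strand) was the highest of all 10 genes, with 52.9 RPKM in replicate 1 and 71.0 RPKM in replicate 2, averaging 61.9 ± 12.8 RPKM (SD, n = 2), above 84.1% of the genes at 1 RPKM or more. Id2 (Entrez gene 25587, chromosome 6, 53084391 to 53086222, minus strand) was at 7.30 and 9.84 RPKM, a mean of 8.57 ± 1.80 RPKM. Id1, often used as a readout of BMP signalling (Entrez gene 25261, chromosome 3, 154620063 to 154621190, plus strand), was the lowest of the 10 at 4.42 and 4.34 RPKM, a mean of 4.38 ± 0.0610 RPKM. The 2 values of Id1 stand for 12 reads in each library at a model length of 907 bases, and they differ only because the read totals do. The small SD of Id1 therefore does not measure its precision, and the counting interval runs from 2.81 to 6.52 RPKM.

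Id3 exceeded Id1 by 12.0-fold in replicate 1 and 16.4-fold in replicate 2, and it exceeded Id2 by 7.25-fold and 7.22-fold. Its 149 and 204 reads, at a model length of 942 bases, give an interval of 55.7 to 68.8 RPKM, which overlaps no other interval of the 10 genes. Both libraries of Id3, at 52.9 and 71.0 RPKM, lie outside this interval, so it does not cover the difference between the replicates. The fourth family member, Id4, was at 1.64 and 1.41 RPKM. Id3 made up 79.8% and 82.0% of the summed Id level in replicates 1 and 2, Id2 11.0% and 11.4%, and Id1 6.68% and 5.01%.

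On the log2(RPKM + 1) scale the median of the Id genes (Id1, Id2 and Id3) minus the median of the receptor genes (Bmpr1a and Bmpr2) was -1.28 in replicate 1 and -1.13 in replicate 2, a difference of -1.21 ± 0.10 (SD, n = 2). By this median the 3 Id genes lay below Bmpr1a and Bmpr2, although Id3 lay above both. The direction depends on the receptors taken. Medians in replicates 1 and 2 were 5.86 and 7.09 RPKM for the 4 Id genes. They were 2.65 and 2.49 RPKM for the 4 type I receptor genes, and 14.4 and 14.8 RPKM for the 3 type II genes. The median of the 3 Id genes is the value of Id2, and with means of the log2 values in place of medians the difference was -0.57.

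The sequences before the starts of the Id genes are shown because these are the target genes whose RNA levels differed most among the 10. Each line gives the 250 bases 5′ of the RefSeq gene start in the GRCr8 build, read 5′ to 3′ on the gene's strand (GRCr8 positions are separate from the rn5 positions above). The windows are chr3:161671314-161671563 on the plus strand for Id1, chr6:47470996-47471245 on the minus strand for Id2 and chr5:153656041-153656290 on the plus strand for Id3. Capitals mark matches, on either strand, to the TATA box TATAAA, the CCAAT box CCAAT, the GC box GGGCGG, the GC-rich Smad motif GGCGCC or the palindromic Smad motif GTCTAGAC.
Id1: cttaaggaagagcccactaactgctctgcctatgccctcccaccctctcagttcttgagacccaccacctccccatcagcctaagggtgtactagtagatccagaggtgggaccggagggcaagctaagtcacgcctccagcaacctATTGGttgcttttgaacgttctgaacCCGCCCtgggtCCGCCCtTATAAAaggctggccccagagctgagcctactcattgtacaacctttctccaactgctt
Id2: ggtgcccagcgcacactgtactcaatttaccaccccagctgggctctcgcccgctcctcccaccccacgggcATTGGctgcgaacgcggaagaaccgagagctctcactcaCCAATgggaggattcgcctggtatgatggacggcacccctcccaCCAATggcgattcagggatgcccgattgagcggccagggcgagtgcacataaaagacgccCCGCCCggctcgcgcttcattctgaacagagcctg
Id3: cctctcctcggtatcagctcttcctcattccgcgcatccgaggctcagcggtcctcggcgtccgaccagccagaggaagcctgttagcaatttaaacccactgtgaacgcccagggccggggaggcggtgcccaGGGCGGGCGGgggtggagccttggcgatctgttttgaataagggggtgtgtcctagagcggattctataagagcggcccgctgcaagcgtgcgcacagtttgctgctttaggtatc

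Id1 held 1 TATA box, 1 CCAAT box and 2 GC boxes in this window. Id2 held 3 CCAAT boxes and 1 GC box, and Id3 held 2 GC boxes that overlap by 2 bases. Over 27455 promoter windows of the same length in the RefSeq table, TATAAA was found in 13.1%, CCAAT in 34.3% and GGGCGG in 32.4%. Neither Smad motif was present in these 3 windows. GGCGCC was found in 9.24% of all windows and, of the 10 genes, in that of Smad7, which held 2 matches. GTCTAGAC was found in 0.186% of all windows and in none of the 10. These are matches of letters in a short window and do not locate sites that lie farther away.

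All 10 genes matched the promoter table, and their windows differed in CpG content. Smad7 held 32 CpG dinucleotides in 250 bases, Smad1 24, Bmpr2 23, Id2 and Id3 19 each, Bmp4 17 and Id1 5. Bmpr1a, Smad4 and Smad5 held 1 each. The median of the 10 was 18.0, beside 6.0 over all windows, 17.0 over the 8832 matched genes averaging 1 RPKM or more and 3.0 over the 4939 matched genes listed at 0. The low-CpG windows of Bmpr1a, Smad4 and Smad5 belong to genes with means between 27.6 and 38.7 RPKM, and Id1, with fewer CpG than Id2 and Id3, was the lowest of the 10. No relation between CpG content and level was tested over these genes. The windows follow the RefSeq gene starts, and whether transcription begins there in these cells was not tested.

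The E protein genes, whose products the Id proteins bind, were higher than the Id genes in sum. The E2A gene, Tcf3 (Entrez gene 171046, listed in the table under its older symbol Tcfe2a), had 99.9 and 98.3 RPKM in replicates 1 and 2. The table's own symbol Tcf3 belongs to another gene, now named Tcf7l1, and was not used here. Tcf12 was at 37.5 and 38.6 RPKM, and Tcf4 at 17.2 and 18.6 RPKM. The 4 Id genes together came to 66.2 and 86.6 RPKM and the 3 E protein genes to 155 RPKM in each library. The ratio of the Id sum to the E protein sum was 0.428 in replicate 1 and 0.557 in replicate 2, and Id3 alone was lower than Tcf3 in both libraries. RNA levels do not give protein amounts.

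**Figure D2:**
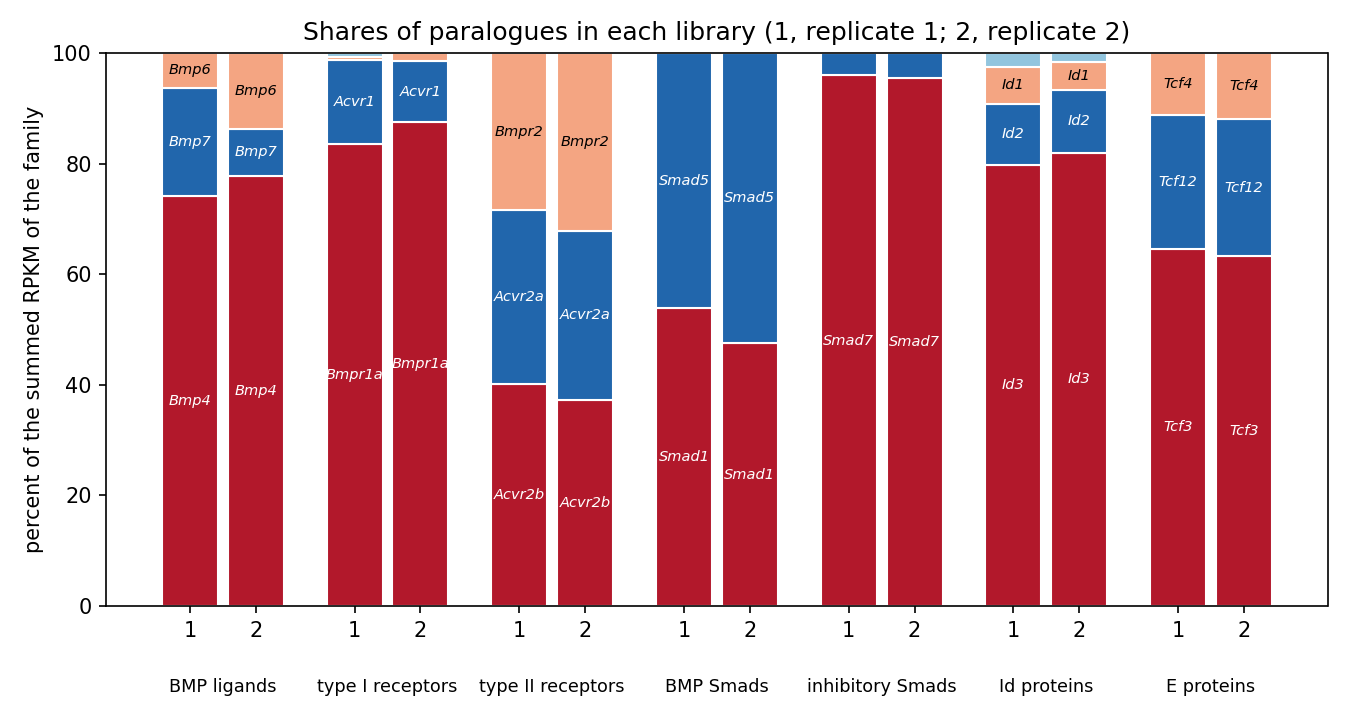
Percent of the summed RPKM that each paralogue took within its family, as stacked bars for replicate 1 and replicate 2 (shares over 5% are labelled). Bmp4, Bmpr1a, Smad7 and Id3 each took 74.2% or more of the sum of the listed genes of their family in both libraries. Smad1 and Smad5 changed places, and Bmpr2 took 28.4% and 32.1%.

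Of 60 genes other than the 10, 27 averaged 1 RPKM or more (45.0%, beside 46.4% of all genes in the table), 14 lay above 0 and under 1 RPKM, and 19 were listed at 0 in both libraries. All 10 intracellular regulators of Smads were detected. The deubiquitinase gene Usp9x, whose product acts on Smad4, led them at 110.5 ± 7.73 RPKM (SD, n = 2), followed by the phosphatase gene Ppm1a at 94.0 ± 4.16 RPKM and the ubiquitin ligase gene Trim33 at 55.1 ± 2.90 RPKM. Zeb2, a Smad-binding repressor gene, was the lowest of them at 1.00 ± 0.527 RPKM. Of the 4 co-receptor genes, Rgma was at 35.7 ± 0.986 RPKM, Rgmb at 5.27 ± 0.0472 RPKM and Eng at 4.60 ± 0.358 RPKM. Hfe2, the hemojuvelin gene, was listed at 0 in replicate 1 and at 0.155 RPKM in replicate 2.

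Secreted and membrane antagonists mostly averaged under 1 RPKM, with 3 of 12 at 1 RPKM or more (25.0%, beside 46.4% of all genes in the table). Fstl1, a follistatin-like secreted protein gene, was at 53.5 ± 3.75 RPKM, the decoy receptor gene Bambi at 16.7 ± 0.601 RPKM and Nbl1 at 2.42 ± 0.230 RPKM. Among the others, Grem1, Twsg1 and Sostdc1 were listed at 0. Of 9 other BMP targets, most of them known from differentiating tissues, only Dusp9 averaged 1 RPKM or more (11.1%, beside the same 46.4%). Dusp9 encodes an ERK phosphatase that is a BMP target in mouse embryonic stem cells, and it had 4.32 RPKM in replicate 1 and 3.42 RPKM in replicate 2. Hey1 was at 0.893 and 0 RPKM and Dlx5 at 0.481 and 0.236 RPKM, while Gata2, Gata3, Hand1 and Atoh8 were listed at 0. All 4 Id genes, by contrast, averaged 1 RPKM or more. The lists are short and their shares were not tested. The contrast also depends on how the lists were drawn, since Smad7, also induced by the branch, was listed with the inhibitory Smads.

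**Figure D3:**
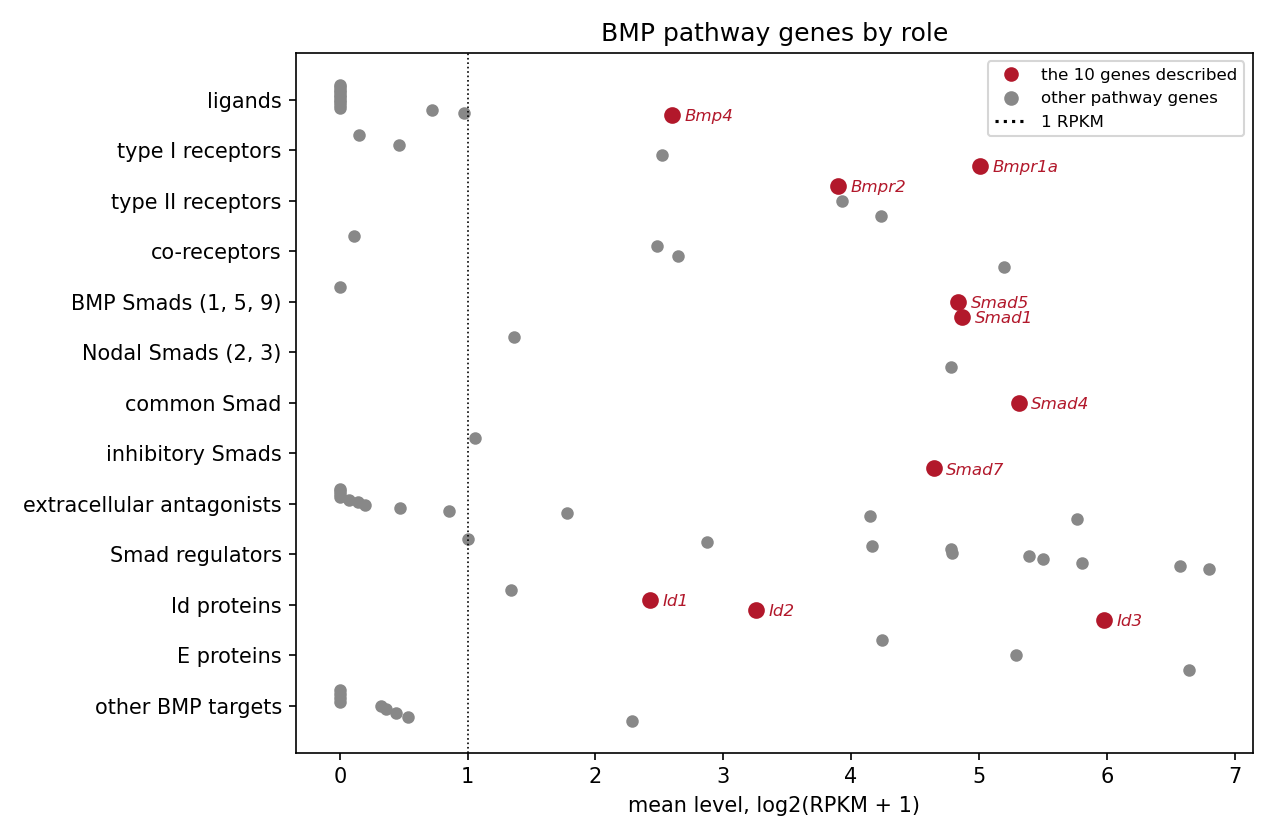
Mean level as log2(RPKM + 1) of every gene of the pathway lists by role, with the 10 genes in red and the others in grey, and a dotted line at 1 RPKM. Most genes listed as ligands, antagonists or other BMP targets lie at or near 0. All 10 Smad regulators, all 3 E proteins and all 3 type II receptors lie at or above 1 RPKM.

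The deposited annotation gives another list. The table assigns the gene ontology term for the BMP signalling pathway to 45 genes, 7 of them among the 10. Smad7, Id2 and Id3 do not carry the term there. Of the 38 genes with the term that are not among the 10, 11 averaged 1 RPKM or more (28.9%, beside 46.4% of all genes in the table) and 12 were listed at 0. The highest was the Nodal co-receptor gene Tdgf1 at 344 ± 14.2 RPKM (SD, n = 2), followed by Lef1, a partner of beta-catenin, at 114 ± 2.93 RPKM.

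Between the replicates Id2 and Id3 had the largest ratios of the 10 genes. Replicate 2 over replicate 1 was 1.35-fold for Id2 and 1.34-fold for Id3 in RPKM, and on the log2(RPKM + 1) scale used below, which understates the ratios of low genes, Id3 came first. None of the 10 had a ratio of RPKM + 1 over 2-fold between the libraries, beside 0.721% of the 10814 genes averaging 1 RPKM or more. Of the 10, 6 were higher in replicate 2 (Bmpr1a, Bmpr2, Smad5, Smad7, Id2 and Id3), beside 45.9% of those genes. The median log2 ratio of replicate 2 over replicate 1 was 0.14 for the 10 and -0.02 for all of them. Id3 had a log2 ratio of 0.42, and 0.789% of the 1648 genes with a mean within 1.5-fold of its own differed by as much in either direction. Genes were matched here by level and not by reads. A short gene model such as that of Id3 holds fewer reads at a given level, so the share may overstate how unusual Id3 is. Bmpr1a followed among the well covered genes with a log2 ratio of 0.31, which 6.30% of 2366 genes of like level reached. Id2 had a log2 ratio of 0.39, but at its level 14.1% of 1975 genes differed as much. For Id1 the log2 ratio was -0.02.

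The fibroblast and feeder markers also lay higher in replicate 2, with 4 of 8 higher there, 1 lower and 3 listed at 0 in both, and a summed level of 12.9 RPKM in replicate 2 and 6.95 RPKM in replicate 1. Their part in the difference of Id3 was not tested. The embryonic stem cell markers were at nearly equal sums in both libraries, as given above. With 2 libraries of 1 group no profile across conditions exists, so no gene was ranked by its likeness to any of the 10.

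**Figure D4:**
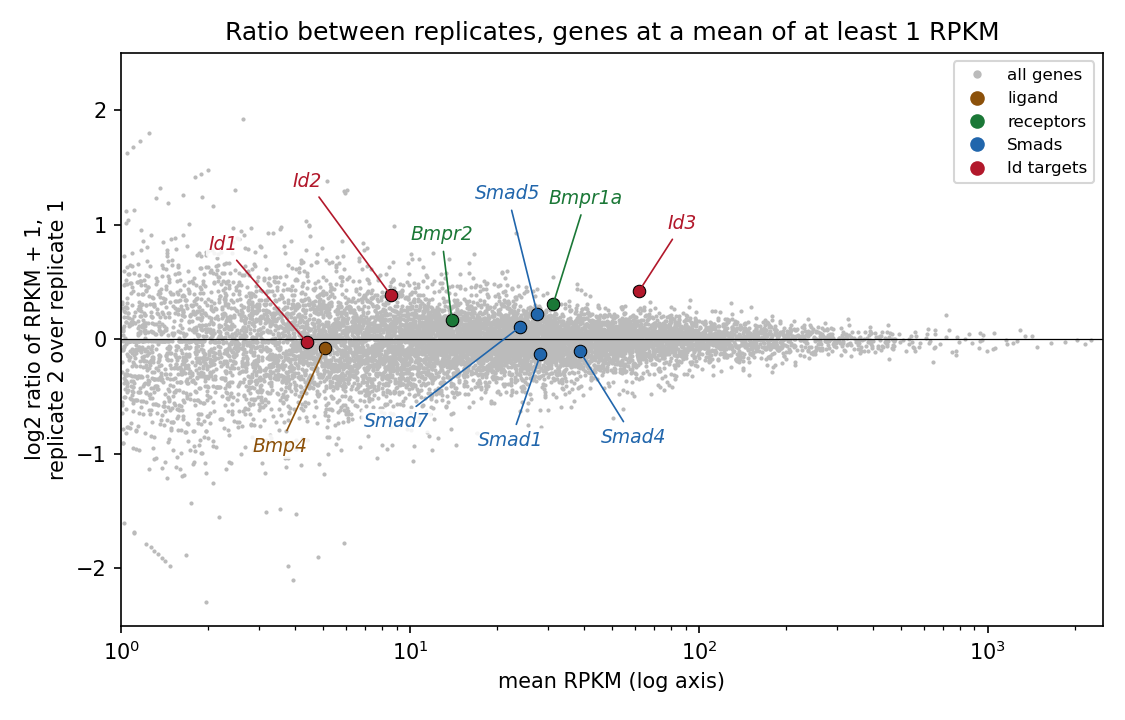
Log2 ratio of RPKM + 1, replicate 2 over replicate 1, against mean RPKM on a log axis for all genes averaging 1 RPKM or more (grey) and the 10 genes (coloured by role). Id3 lies at 0.42, at the upper edge of the genes of its level, while the other 9 lie within the cloud, between -0.13 and 0.39.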

How the data were processed

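RNA from 2 libraries of 1 wild-type group was sequenced with paired ends of 50 bp. The authors deposited RPKM values per gene, 1 column per library, with rn5 coordinates. CASAVA 1.8 and TopHat 1.4.0 are named, per the submitters' processing notes, while the counting tool, the gene models and the handling of multi-mapped reads were not given in the sources used here. Rows were summed by Entrez identifier (420 genes had more than 1 row, none of them among the 10 described). Count models need counts and were not applied to RPKM, and with 1 group no test was made. Levels are means ± SD over 2 libraries, and log2 values use a pseudocount of 1, which understates differences between low values. Genes averaging 1 RPKM or more were called detected.

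Each read total is the one most often implied by rows under 6000 bp of locus if they held 1 to 10 reads, the locus standing for the gene model. At that total 527 of 2700 such rows above 0 (19.5%) gave whole reads in replicate 1 and 525 of 2688 (19.5%) in replicate 2. Reads and model lengths of the 10 genes use the shortest length from 60 to 20000 bp that made both values whole within a relative tolerance of 3e-07. Among 1000 rows sampled, whole reads were found in 80.6%, and in 2.60% once their values had been perturbed. A length may be too short by a whole factor, which makes an interval too wide. Only 1 length is possible within the locus for Id1 and Id3, and 2 for Id2 and Bmp4. The procedure was tested on simulated libraries.

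The 10 genes and the gene lists were chosen with earlier results of these data known. Named are the 10 genes, their paralogues, the 3 highest and a lowest gene of other lists, and the E proteins. Tdgf1 and Lef1 were named after their values were seen. List genes were matched by Entrez identifier through the current symbols of a RefSeq table of the GRCr8 assembly, since Rgmb, Ski and Tcf3 have other symbols in the deposited table (Hfe2 and T matched by the deposited symbol). RefSeq also gave the promoter sequences. Alternatives changed the detection minimum, pseudocount, summary, row choice, library scale and replicates. The software was Python 3.11.15 (numpy 2.4.6, scipy 1.17.1, pandas 2.3.3) with matplotlib 3.10.9 for plots.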

Additional observations from a re-analysis of the deposited data

How the results depend on the processing

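With each library rescaled to a sum of 1000000 the levels were multiplied by 2.28 in replicate 1 and 2.30 in replicate 2. The median of the 10 genes was then 57.4 in place of 25.1 RPKM. The count of these genes at 10 or more rose from 7 to 10 through this factor. The share of all genes at 10 or more on this scale was not computed. With means of log2 values in place of medians the Id genes minus the receptors came to -0.57 in place of -1.21. Leaving out one replicate at a time gave medians of the 10 genes from 24.3 to 26.0 RPKM, differences of the Id genes minus the receptors from -1.28 to -1.13, and 26 to 28 detected genes among the other pathway genes. Detection minimums of 0.3 and 3 RPKM gave 34 and 22 of these in place of 27, and left all 10 genes detected. The pseudocount, the row choice and the minimums for the replicate ratio changed no direction and no count of the 10 genes. No paired analysis was possible because the replicate numbers belong to a single group. Depth limits Id1, Bmp4 and Id2 most, with 24 to 47 reads in both libraries together.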
